A study of Mus musculus with 4 samples.

Results

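The Hippo pathway genes examined here were the 10 core members of the cascade: the co-activators Yap1 and Wwtr1 (which encodes TAZ), the DNA-binding partners Tead1 to Tead4, the kinases Lats1 and Lats2, and the upstream kinases Stk3 and Stk4 (which encode MST2 and MST1). They were chosen by symbol, as the core of the pathway without its target genes, and all 10 were found among the 55416 gene identifiers of the deposited tables. Their Ensembl identifiers are ENSMUSG00000053110 (Yap1), ENSMUSG00000027803 (Wwtr1), ENSMUSG00000055320 (Tead1), ENSMUSG00000030796 (Tead2), ENSMUSG00000002249 (Tead3), ENSMUSG00000030353 (Tead4), ENSMUSG00000040021 (Lats1), ENSMUSG00000021959 (Lats2), ENSMUSG00000022329 (Stk3) and ENSMUSG00000018209 (Stk4). RNA-seq libraries of mouse small intestinal organoids, epithelial cultures grown in a basement-membrane gel, were compared between 2 adult and 2 fetal libraries. The adult organoids came from C57BL/6 mice of 4 to 8 weeks and the fetal organoids from C57BL/6 embryos at E15.5 (embryonic day). Both were kept in the commercial medium IntestiCult, and no mutant allele or added agent is named for either group. The labels do not say whether the 2 replicates of a group came from separate animals or cultures, and the p-values therefore reflect library-to-library spread that could be purely technical.

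In this pathway, Stk3 and Stk4 kinases with the scaffold Sav1 activate Lats1 and Lats2 with the adaptors Mob1a and Mob1b. Active LATS kinases phosphorylate YAP and TAZ, which are then held in the cytoplasm by 14-3-3 proteins or degraded. Unphosphorylated YAP and TAZ enter the nucleus, where they bind TEAD factors, which contact DNA but need a co-activator to turn genes on. In the intestine YAP is best known for its part in regeneration after injury, when the epithelium takes on fetal features. These libraries measured RNA, and phosphorylation and localization, the main levels of control of the pathway, were not measured.

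The 4 libraries held 10862147 to 13061585 estimated counts. Values in CPM are library-scaled counts, computed with TMM factors (a scaling that centres most genes) and are used to compare libraries. Values in TPM are scaled by transcript length and are used to compare levels between genes. Mitochondrial transcripts took 17.5% to 17.6% of counts in adult and 6.98% to 7.82% in fetal libraries. Fetal over adult, the median gene had a log2 fold change of 0.01 after TMM scaling, of 0.25 when only library totals were used and of 0.36 in log2(TPM + 1), so that small changes below depend on the scale. The epithelial label fitted the markers: all 10 epithelial markers were detected in every library, of which 4 rose, 5 fell and 1 was not called. The keratins Krt8 and Krt19, the 2 highest by the mean of all libraries, stood at 1016 ± 25.6 and 575 ± 6.37 CPM in adult and at 2005 ± 11.7 and 1428 ± 1.40 CPM in fetal organoids (SD, n = 2). Among those that fell were Hnf4a (771 to 258 CPM) and Cdx1 (83.8 to 28.5 CPM), transcription factors of the intestinal epithelium, and the adhesion protein Epcam (954 to 732 CPM). In TPM, Hnf4a (220 to 97.4) and Cdx1 (60.2 to 26.8) were also lower, but Epcam was nearly level (706 and 701). Vil1 and Cldn7, the others that fell, were higher in fetal libraries in TPM (187.5 to 218.9 and 396.3 to 482.5). Of 11 mesenchymal markers 6 rose, and their summed level was 5.16 to 5.91 CPM in adult and 67.2 to 69.1 CPM in fetal libraries. Col3a1, a fibrillar collagen, had 0 counts in both adult libraries and reached 365 and 347 counts in fetal ones (at least 92.4-fold higher against a floor of 3 counts per library), and Col1a1 went from 4 counts per adult library to 248 and 232 in fetal ones. Col1a2, Dcn and Lum also had 0 counts in both adult libraries, and had 149 and 120, 27 and 24, and 15 and 8 counts in fetal ones. Vim had 37 and 28 counts in adult and 145 and 95 in fetal libraries, and Pdgfra 0 and 3 against 18 and 20. Pdgfrb, with 15 to 28 counts per library, was not called. The remaining 3 markers were low in every library, with at most 2 counts for Twist1, 3 for Zeb1 and 7 for Acta2. Summed endothelial markers were low, at 2.63 and 4.01 CPM in adult and 1.26 and 2.28 CPM in fetal libraries. Most of this was Esam, which was not called. Summed immune markers were at 0.401 to 0.963 CPM. The part of mesenchymal RNA in the results below was not tested, and in bulk samples fewer cells of a type and less RNA per cell cannot be told apart.

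The promoters of both paralog pairs in which one member rose by 8-fold or more are printed first, because the data below separate these paralogs. RefSeq start sites (GRCm38.p6) gave promoter windows for 7 of the 10 genes; Tead1, Tead4 and Stk3 had none in the table. The 250 bases before the start site are given 5′ to 3′ on the gene's strand, in lower case, with the core TEAD motif GGAATG in capitals.
Yap1, chr9:8004597-8004846, minus strand: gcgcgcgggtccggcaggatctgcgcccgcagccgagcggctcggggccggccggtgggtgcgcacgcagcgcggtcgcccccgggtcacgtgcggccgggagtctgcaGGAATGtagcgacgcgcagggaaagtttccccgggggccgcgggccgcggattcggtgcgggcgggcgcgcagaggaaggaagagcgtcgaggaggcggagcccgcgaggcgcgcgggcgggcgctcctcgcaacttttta
Wwtr1, chr3:57575911-57576160, minus strand: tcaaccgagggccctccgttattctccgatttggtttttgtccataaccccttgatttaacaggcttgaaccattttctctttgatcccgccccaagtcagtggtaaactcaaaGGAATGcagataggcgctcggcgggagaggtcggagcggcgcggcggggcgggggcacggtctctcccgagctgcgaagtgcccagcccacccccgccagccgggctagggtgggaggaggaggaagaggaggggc
Lats1, chr10:7680959-7681208, plus strand: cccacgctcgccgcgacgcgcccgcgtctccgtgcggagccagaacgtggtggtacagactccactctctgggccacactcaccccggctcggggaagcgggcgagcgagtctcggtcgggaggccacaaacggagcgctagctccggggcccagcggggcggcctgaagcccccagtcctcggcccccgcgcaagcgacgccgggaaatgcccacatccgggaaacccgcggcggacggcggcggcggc
Lats2, chr14:57746124-57746373, minus strand: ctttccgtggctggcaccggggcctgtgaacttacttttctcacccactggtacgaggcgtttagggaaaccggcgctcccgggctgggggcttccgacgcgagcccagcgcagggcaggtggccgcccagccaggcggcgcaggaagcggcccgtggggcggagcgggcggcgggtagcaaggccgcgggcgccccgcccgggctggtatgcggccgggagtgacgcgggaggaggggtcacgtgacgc
The motif GGAATG was searched on both strands, as GGAATG or CATTCC. In the 250 bases it began 141 bases before the Yap1 start and 136 bases before the Wwtr1 start, and the Lats1 and Lats2 stretches held no match. Wwtr1 and Lats2 each have 2 windows in the table, of which the first is printed. The Wwtr1 match lies 170 bases before the second start. The first Lats2 window held 1 match within the 50 bases after the start, and the second held none. Of the 7 genes, Yap1, Wwtr1 and Tead3 held the motif before at least 1 of their start sites, against 14.4% of the 27025 genes in the table; Tead3 has 3 windows. A match describes letters in a window and is not evidence of binding. The GC content was 76.4% in the Yap1 stretch, 61.6% in that of Wwtr1, 74.8% in that of Lats1 and 74% in that of Lats2. The median over 32851 windows was 52.4%.

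Of the 10 genes, 7 rose, 1 fell and 2 were not called in fetal organoids (p under 0.05 after Benjamini-Hochberg adjustment over 14271 genes, quasi-likelihood test of edgeR). Over all genes tested, 66.5% were called, 33.9% as higher and 32.7% as lower (12.8% as lower on log2(TPM + 1)). Of the 10, 4 rose at least 2-fold, beside 13.6% of all genes. Wwtr1, Tead4 and Lats2 rose at least 8-fold, Lats2 narrowly at 8.13-fold, and 5.8% of all genes did so. With Tead2 excepted at 3.90-fold, the other changes stayed below 2-fold. The median log2 fold change of the 10 genes was 0.81, beside 0.01 over all genes. CPM of the groups did not overlap for 9 of the 10 genes, which was also the case for 82.7% of all genes; fetal libraries lay above for 8 of the 10 and for 41.9% of all genes. In TPM, 9 of the 10 did not overlap, all with fetal libraries above, beside 83.3% of all genes without overlap and 63.7% with fetal libraries above. On log2(TPM + 1) with limma, 9 genes were higher, where 49.6% of genes were higher; none was lower at an adjusted p under 0.05, nor at an unadjusted p under 0.05 (0 of 10), whereas DESeq2 called 1 lower. All 10 genes passed the filter on low counts, but Tead4, with 12 and 6 counts in adult, did so only through its fetal libraries. The TPM filter asked for 1 TPM or more in 2 libraries. Wwtr1, Tead4 and Lats2 were below 1 TPM in both adult libraries and met it through fetal libraries alone. Genes that passed in this way could only be called higher, so their passing lends no weight to their calls.

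**Figure D1:**
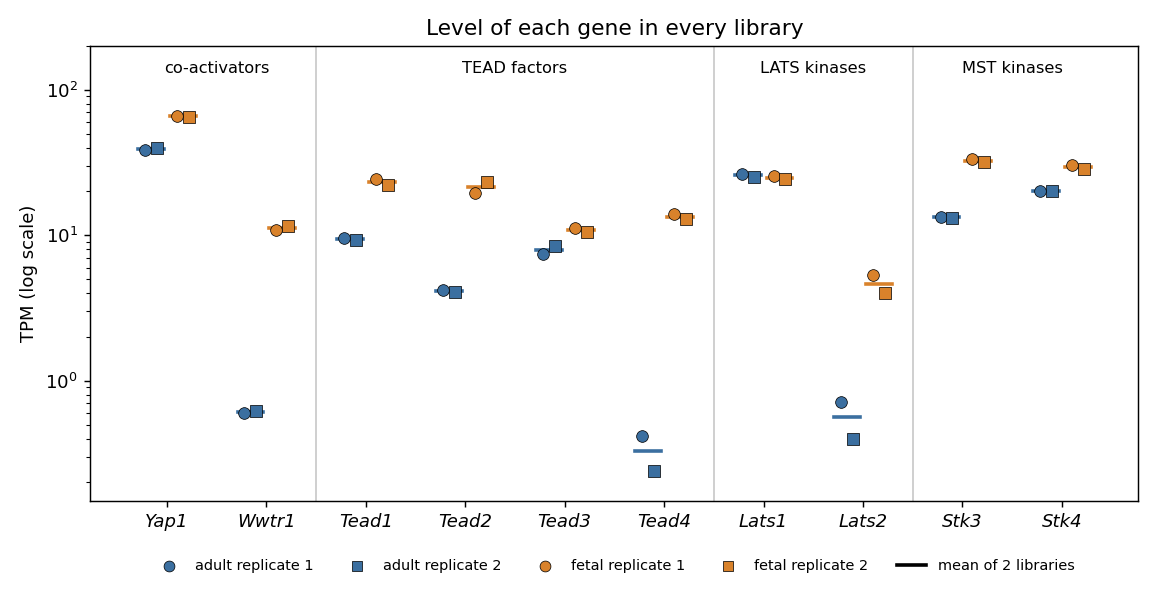
TPM of the 10 genes in each of the 4 libraries on a log axis, with the mean of 2 libraries as a bar. The adult libraries of Wwtr1, Tead4 and Lats2 lie between 0.24 and 0.72 TPM and the fetal libraries between 4.01 and 14.02 TPM, while the libraries of Lats1 lie together at 24.24 to 26.32 TPM.

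Yap1 was the most abundant of the 10 genes per length in both groups. It encodes the co-activator YAP. Its level was 38.4 and 39.8 TPM in adult and 65.9 and 65.3 TPM in fetal libraries. In CPM the values were 115.5 and 118.4 in adult and 140.4 and 144.0 in fetal libraries. Both fetal libraries lay above both adult libraries on either scale. The rise was small with TMM scaling, 1.22-fold (log2 fold change 0.28 with SE 0.04, adjusted p = 5.15e-05 by edgeR and Benjamini-Hochberg), and ranged from 0.25 to 0.31 on the log2 scale with single libraries left out. It was 0.53 with library totals and 0.75 on log2(TPM + 0.1), where the median gene also moved up, by 0.25 and 0.40.

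Wwtr1, the gene of the YAP paralog TAZ, was nearly silent in adult organoids. It had 26 and 23 estimated counts in adult and 448 and 455 in fetal libraries. Its CPM were 2.28 and 2.31 in adult and 31.2 and 34.6 in fetal libraries. The adult libraries were almost equal and the fetal libraries stood far above them. Wwtr1 rose 14.3-fold (log2 fold change 3.84 with SE 0.14, adjusted p = 1.51e-10 by edgeR and Benjamini-Hochberg), and 3.97% of all genes had a higher log2 fold change. Mesenchymal markers, given above, moved the same way between the groups.

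Because Wwtr1 rose more than Yap1, the make-up of the pair changed. Wwtr1 took 1.54% of the summed Yap1 and Wwtr1 TPM in either adult library, but 14.1% and 15.1% in fetal libraries. Yap1 exceeded Wwtr1 by 64.1-fold in TPM in both adult libraries and by 6.11-fold and 5.62-fold in the fetal libraries. The summed level of both co-activators was 39.0 and 40.4 TPM in adult and 76.7 and 77.0 TPM in fetal libraries. In TPM, most of that difference in sums was Yap1 by size, since its mean TPM went from 39.1 to 65.6 and that of Wwtr1 from 0.61 to 11.2. This depended on the scale. In CPM, which is not per length, the mean of Yap1 went from 117 to 142 and that of Wwtr1 from 2.29 to 32.9. There Wwtr1 was the larger part, and the sum was 1.47-fold higher by the means. Shares and sums were not tested: with 2 libraries against 2, an exact permutation test cannot give a two-sided p below 0.333.

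The TEAD factors, which carry YAP and TAZ to DNA, differed among themselves. In TPM, Tead1 and Tead3 led in adult organoids, and Tead1 and Tead2, whose libraries overlapped, in fetal organoids. In CPM, Tead1 led in both groups, and the fetal libraries of Tead2 and Tead4 overlapped. Tead1 was at 70.1 and 69.6 CPM in adult and 126.9 and 121.7 CPM in fetal libraries. It rose 1.78-fold (log2 fold change 0.83 with SE 0.05, adjusted p = 1.24e-08 by edgeR and Benjamini-Hochberg).

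Tead2, known as the TEAD most prominent in early embryos, was at 5.16 and 6.12 CPM in adult and 20.6 and 23.2 CPM in fetal libraries. It rose 3.90-fold (log2 fold change 1.96 with SE 0.14, adjusted p = 7.68e-08 by edgeR and Benjamini-Hochberg). In TPM the gene was at 4.19 and 4.06 in adult and 19.6 and 23.1 in fetal libraries, so that it reached the level of Tead1 (24.5 and 22.3 TPM), with overlapping fetal libraries.

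Tead4, known from the trophectoderm lineage and from muscle, had the largest fold of the 10 genes. It had 12 and 6 counts in adult and 317 and 277 in fetal libraries. The CPM were 1.05 and 0.601 in adult and 22.1 and 21.0 in fetal libraries, far apart. Tead4 rose 25.4-fold (log2 fold change 4.67 with SE 0.21, adjusted p = 9.53e-10 by edgeR and Benjamini-Hochberg). The low adult counts limit its precision, and the log2 fold change was 4.34 to 5.14 with single libraries left out.

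Tead3 was not called. Its CPM were 14.2 and 13.1 in adult and 15.8 and 14.0 in fetal libraries, and the groups overlapped (log2 fold change 0.12 with SE 0.12, adjusted p = 0.378 by edgeR and Benjamini-Hochberg). In TPM it was at 7.42 and 8.38 in adult and 11.2 and 10.5 in fetal libraries, without overlap. On log2(TPM + 1) it was called higher (0.41, limma, Benjamini-Hochberg adjusted p = 0.0275), but not after the TPM libraries were rescaled to a common median ratio (0.05, adjusted p = 0.709).

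The TEAD family as a whole stood at 21.7 and 21.9 TPM in adult and at 69.3 and 68.8 TPM in fetal libraries, 3.17-fold higher by the means. The size of this difference depended on the scale. In CPM the sum was 90.5 and 89.4 in adult and 185.3 and 180.0 in fetal libraries, 2.03-fold higher by the means. In adult organoids Tead1 held 43.4% ± 1.63 of the family's TPM, Tead3 36.2% ± 2.81, Tead2 18.9% ± 0.581 and Tead4 1.52% ± 0.596 (SD, n = 2). In fetal organoids Tead1 held 33.9% ± 2.11, Tead2 30.9% ± 3.74, Tead4 19.5% ± 1.05 and Tead3 15.7% ± 0.572. Tead4 thus went from the lowest place, below every other TEAD gene, to a level above that of Tead3, and the fetal libraries of these genes did not overlap (12.9 and 14.0 TPM against 10.5 and 11.2). The share of Tead3 was lower although its level was not called lower.

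**Figure D2:**
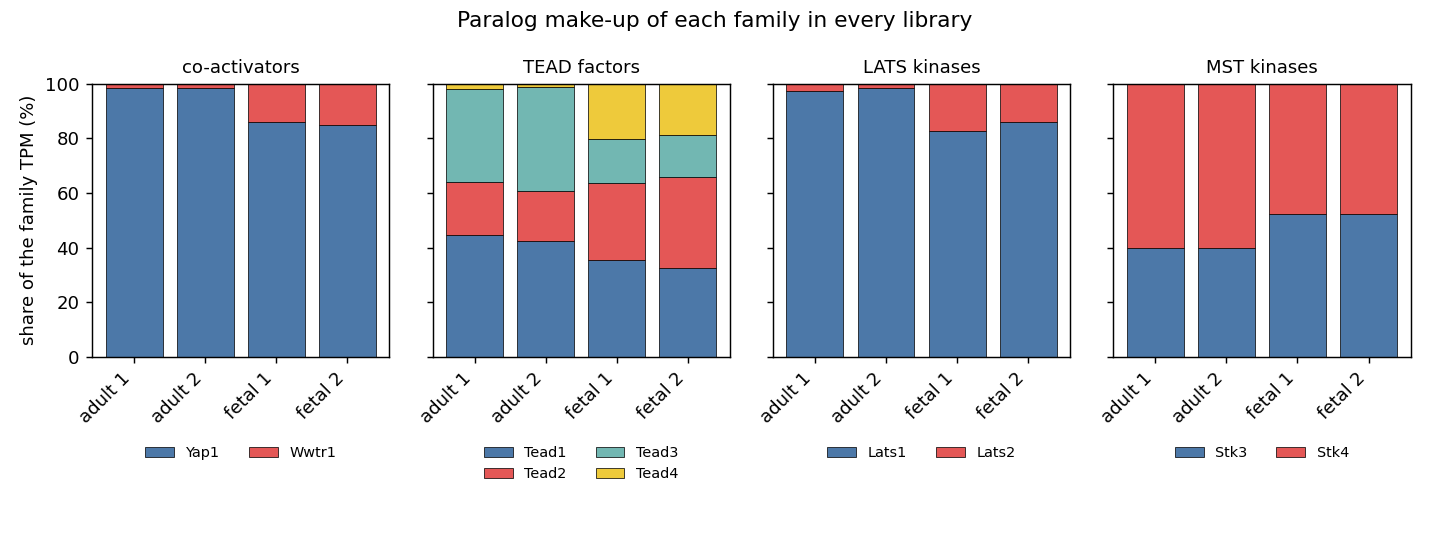
Stacked bars of each gene's share of the TPM of its family, in percent, 1 bar per library. Wwtr1, Tead4 and Lats2 take at most 2.66% in the adult libraries and at least 14.1% in the fetal libraries; Stk3 passes from 39.7% to 39.9% in adult to 52.3% to 52.4% in fetal libraries.

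The LATS kinases, which phosphorylate YAP and TAZ, moved in opposite directions on the TMM scale. Lats1 was at 155.3 and 149.7 CPM in adult and at 114.3 and 111.1 CPM in fetal libraries, with both fetal libraries below both adult libraries. It fell by 0.44 on the log2 scale (SE 0.04, adjusted p = 1.15e-06 by edgeR and Benjamini-Hochberg). This fall depended on the scale. In TPM Lats1 stood at 26.3 and 25.2 in adult and at 25.6 and 24.2 in fetal libraries, which overlap (log2 fold change -0.05 on log2(TPM + 1), limma, Benjamini-Hochberg adjusted p = 0.608). With TPM rescaled to a common median ratio the log2 fold change was -0.43 (adjusted p = 0.00619), and with library totals -0.19 (edgeR, adjusted p = 0.00158). Relative to the median gene on each scale, Lats1 was lower; as a fraction of all transcripts in the TPM table its groups overlapped.

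Lats2, itself known as a gene that YAP and TEAD turn on, rose from near silence. It had 19 and 16 counts in adult and 209 and 159 in fetal libraries. In CPM it was at 1.66 and 1.60 in adult and at 14.6 and 12.1 in fetal libraries. The groups lay far apart, with more spread between the fetal libraries relative to their mean than for the other 9 genes. Lats2 rose 8.13-fold (log2 fold change 3.02 with SE 0.21, adjusted p = 7.82e-08 by edgeR and Benjamini-Hochberg). The log2 fold change was 2.88 to 3.14 with single libraries left out and 2.88 on log2(TPM + 0.1), so that 8-fold was not reached in every fit. Lats2 made up 2.66% and 1.56% of the LATS TPM in adult and 17.2% and 14.2% in fetal libraries. The summed LATS level was 27.0 and 25.6 TPM in adult and 30.9 and 28.3 TPM in fetal libraries, a smaller difference (1.12-fold by the means) than for the co-activators (1.94-fold) or the TEAD factors. The direction of this sum depended on the scale: in CPM it was 157 and 151 in adult and 129 and 123 in fetal libraries.

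The MST kinases at the head of the cascade differed in their change. Stk3 was at 29.2 and 30.1 CPM in adult and 52.2 and 49.5 CPM in fetal libraries. It rose 1.72-fold (log2 fold change 0.78 with SE 0.07, adjusted p = 5.06e-07 by edgeR and Benjamini-Hochberg). Stk4 was at 85.0 and 86.2 CPM in adult and 90.9 and 87.4 CPM in fetal libraries. The groups did not overlap, but Stk4 was not called (log2 fold change 0.06 with SE 0.05, adjusted p = 0.303 by edgeR and Benjamini-Hochberg). It was called higher with library totals (0.31, adjusted p = 0.000158) and on log2(TPM + 1) (0.53, limma, adjusted p = 0.00294), where the median gene moved by 0.25 and 0.36. Stk4 overlaps Tomm34 on the opposite strand, and strand use in counting is not stated in the sources at hand. Tomm34 had 380 to 636 counts per library and rose by 0.26 on the log2 scale (adjusted p = 0.00314 by edgeR and Benjamini-Hochberg).

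Per length, the order of Stk3 and Stk4 was reversed between the groups. Stk4 was at 20.2 and 20.1 TPM and Stk3 at 13.4 and 13.2 TPM in adult libraries. In fetal libraries Stk3 was at 33.4 and 31.7 TPM and Stk4 at 30.5 and 28.8 TPM. Stk3 lay above Stk4 within each fetal library and below it within each adult library.

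**Figure D3:**
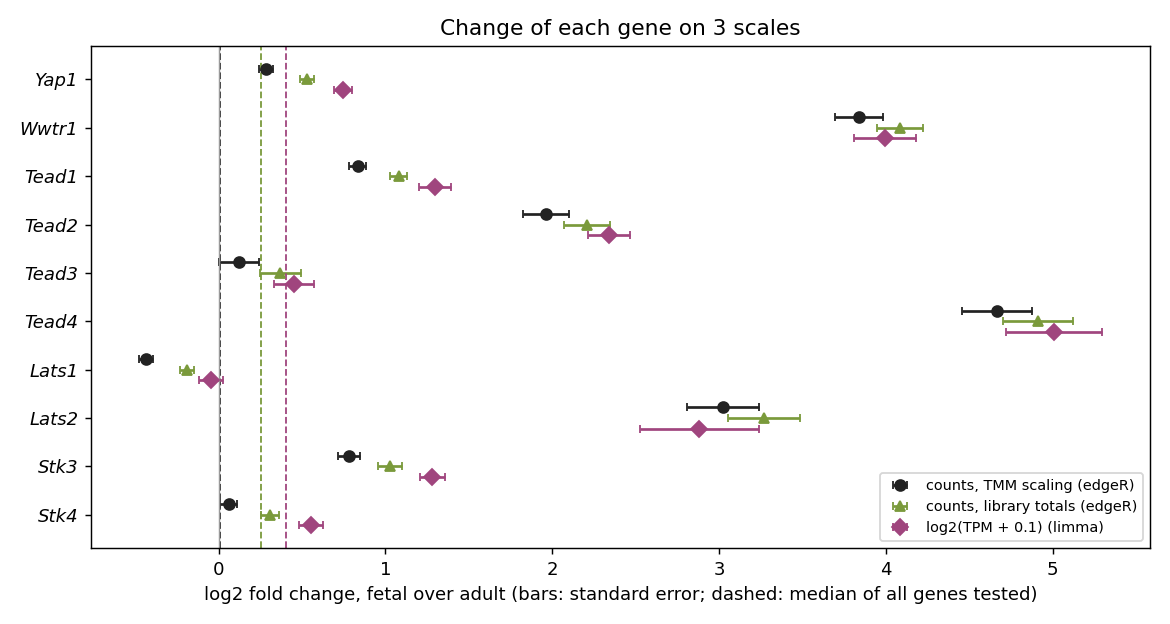
Log2 fold change of each gene, fetal over adult, with its standard error, on counts with TMM scaling, on counts with library totals and on log2(TPM + 0.1); dashed lines mark the median of all genes on each scale (0.01, 0.25 and 0.40). Wwtr1, Tead4 and Lats2 stand at 2.88 or more on each of the 3 scales, whereas Lats1 lies below the median on each.

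In adult organoids the order of the 10 genes by mean TPM was Yap1, Lats1, Stk4, Stk3, Tead1, Tead3, Tead2, Wwtr1, Lats2 and Tead4. The first 7 were separated from their next neighbour in both libraries. Wwtr1 and Lats2, and Lats2 and Tead4, overlapped. In fetal organoids the order was Yap1, Stk3, Stk4, Lats1, Tead1, Tead2, Tead4, Wwtr1, Tead3 and Lats2. Neighbours overlapped for Lats1 and Tead1, for Tead1 and Tead2, and for Wwtr1 and Tead3. The mean TPM of the 10 genes spanned 0.33 to 39.1 in adult and 4.66 to 65.6 in fetal organoids. The least abundant paralog in adult organoids was the one that rose most in each family: Wwtr1, Tead4, Lats2 and Stk3. The adult level that orders the paralogs is also the denominator of the fold change, so the 2 are not independent. Wwtr1, Tead4 and Lats2 had only 6 to 26 counts per adult library, which leaves little room for a fall.

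The rest of the pathway was read from 78 genes in 7 lists by role, of which 73 passed the filter. Of these, 42 rose, 13 fell and 18 were not called, with a median log2 fold change of 0.26. Over all genes tested, 66.5% were called, 33.9% as higher and 32.7% as lower. With library totals 55 rose and 5 fell, beside 6979 and 2973 of all 14271 genes. On log2(TPM + 1) 60 rose and 3 fell, where 49.6% of all genes were higher and 12.8% lower. The lists describe where the 10 genes sit among their partners.

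Among the 7 adaptors and scaffolds of the kinases, 4 rose and 2 fell. Wwc2, a paralog of the scaffold KIBRA, rose from 2.18 ± 0.253 to 43.0 ± 0.682 CPM (log2 fold change 4.29 with SE 0.12), and Wwc1, which encodes KIBRA itself, from 58.1 to 154 CPM. Frmd6, a FERM-domain partner of the kinases, rose from 8.91 to 40.0 CPM. Nf2, which encodes Merlin and recruits LATS kinases to the membrane, fell, with means of 103 and 77.5 CPM (log2 fold change -0.41 with SE 0.05, adjusted p = 8.19e-06 by edgeR and Benjamini-Hochberg). On log2(TPM + 1) and log2(TPM + 0.1) the fall of Nf2 was not called.

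Parallel kinases, which can phosphorylate LATS or YAP beside the MST kinases, were mostly not called. Of 12, 1 rose, 4 fell and 7 were not called, where 33.9% of all genes rose and 32.7% fell. Tnik fell, with means of 56.9 and 25.4 CPM (log2 fold change -1.16 with SE 0.06). The NDR kinases Stk38l and Stk38, relatives of LATS, fell by 0.74 and 0.46 on the log2 scale, although the TPM of Stk38 overlapped between the groups, and Map4k5 rose from 29.1 to 51.9 CPM. With library totals 6 of the 12 were called higher, and on log2(TPM + 1) 7, beside 6979 of 14271 and 49.6% of all genes.

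Of 15 tested negative regulators of the kinases, 8 rose, 2 fell and 5 were not called. The share of calls was near that over all genes, of which 66.5% were called, 33.9% as higher and 32.7% as lower. With library totals 13 were called higher, and on log2(TPM + 1) all 15 were, beside 6979 of 14271 and 49.6% of all genes. Leaving out any 1 of the 4 libraries left 1 of the 2 called lower. The LIM proteins Ajuba and Wtip, which hold LATS away from its activators, rose 11.7-fold (5.44 to 63.9 CPM) and 6.63-fold (1.31 to 8.73 CPM), and Rassf1, a scaffold that binds MST kinases, from 14.3 to 22.9 CPM. Rassf1 is also described as an activator of the MST kinases, so its place in the list is not settled. Fgfr1op2, a component of the phosphatase complex STRIPAK, fell from 90.3 to 78.9 CPM, but in TPM both fetal libraries lay above both adult libraries (means of 69.7 and 53.0).

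Of 18 tested junction and polarity partners, 12 rose and 4 fell, where 33.9% of all genes rose and 32.7% fell. The number that fell was 2 without fetal replicate 1, and 1 with library totals or on any TPM scale tried. Within the angiomotin family, which binds YAP at junctions, the paralogs again moved apart. Amot fell from 143 ± 0.416 to 86.6 ± 2.22 CPM, while Amotl1 had 9 and 13 counts in adult and 1075 and 926 in fetal libraries (1.05 ± 0.365 to 72.6 ± 3.26 CPM, log2 fold change 6.13 with SE 0.14) and Amotl2 rose 3.64-fold. Ptpn14, a phosphatase that binds YAP, rose from 2.20 to 99.0 CPM (log2 fold change 5.49 with SE 0.10). Amotl2 and Ptpn14 are also counted as YAP targets.

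Of 11 genes of cytoplasmic retention and turnover, 9 rose, by 2.00-fold at most, where 33.9% of all genes rose. Sfn, an epithelial 14-3-3 protein, rose from 33.8 to 67.9 CPM, Ywhag from 97.6 to 162 CPM and Ywhaz, the most abundant of the 3, from 637 to 907 CPM. Of the 4 VGLL genes, whose products compete with YAP for TEADs or assist them, 2 were tested. Vgll3 rose from 1.65 ± 0.224 to 15.0 ± 0.582 CPM (log2 fold change 3.19 with SE 0.19), and Vgll4, a repressor of TEADs, was not called, with 48.3 and 55.0 CPM in adult and 48.7 and 47.4 CPM in fetal libraries. Without adult replicate 1, the lower adult library, Vgll4 was called lower.

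As a readout of the same libraries, 7 of 8 genes commonly used as YAP and TEAD output rose and Crim1 fell (log2 fold change -0.35 with SE 0.07). Over all genes 33.9% rose and 32.7% fell. On log2(TPM + 1) 6 of the 8 were called higher and 0 lower, and with library totals 7 and 0. Among those that rose, Tgfb2 had only 3 counts in each adult library. The median log2 fold change of these 8 genes was 3.15, beside 0.81 for the 10 pathway genes. Myof, a membrane-repair protein, rose from 21.5 to 424 CPM, and Axl, a receptor tyrosine kinase, had 3 counts in adult and 409 in fetal libraries (ratio 106, exact 95% counting interval 36.1 to 517). Ccn2, a secreted matricellular protein, rose from 1.15 to 160 CPM. In TPM the groups of Crim1 overlapped.

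**Figure D4:**
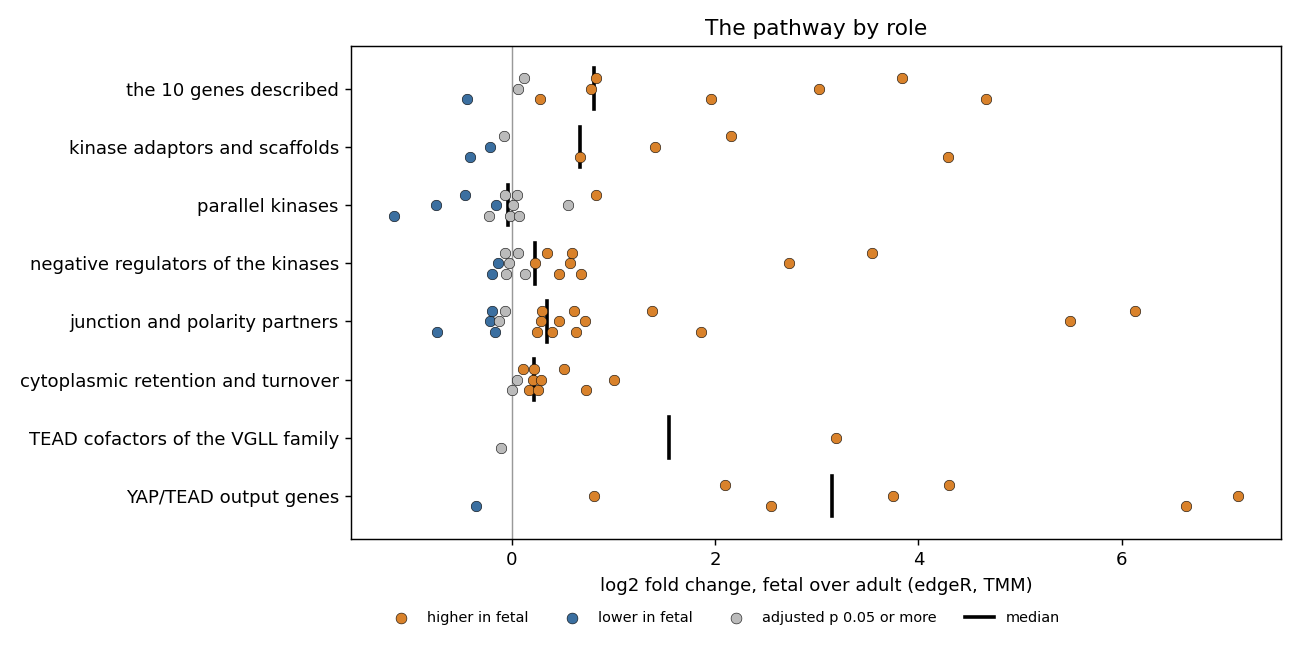
Log2 fold change, fetal over adult (edgeR, TMM), of the 10 genes and of the tested genes of 7 further lists, 1 point per gene, coloured by call, with the list's median as a bar. The 10 genes have a median of 0.81, the parallel kinases of -0.04 and the output genes of 3.15.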

How the data were processed

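RNA of 2 adult and 2 fetal organoid samples was poly-A selected and sequenced with a directional kit, per the labels' protocols. The authors deposited estimated counts (RSEM expected counts, not normalized) and TPM (scaled by length and to a common total) per Ensembl gene, per the file headers. Tools named in the submitters' processing notes are STAR 2.7.3a, RSEM 1.3.3, Trim Galore and FastQC, and the builds GRCm39 and mm10 are named there without a role. Strand use in counting is not stated in the sources at hand. A table of Ensembl identifiers and symbols named 52083 of 55416 identifiers, and GENCODE M21 gave overlapping genes. Coordinates printed are those of the RefSeq promoter table (GRCm38.p6) only.

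Expected counts were rounded and tested with edgeR 4.0.16 (R 4.3.3; TMM, filterByExpr, quasi-likelihood F-test, fetal over adult, adjusted over 14271 genes, threshold 0.05). Standard errors are the log2 fold change divided by the root of F. Errors of means are SD over 2 libraries. TPM were tested with limma 3.58.1 on log2(TPM + 1) or + 0.1, genes at 1 TPM or more in 2 libraries, which understates changes of low genes. DESeq2 1.42.0, other scalings, filters, the replicate number as a block and single libraries left out were alternatives. Scripts were tested on simulated data. Replicates differed by more than sampling noise (chi-square per degree of freedom 3.30 in adult, 2.81 in fetal), so each library counted once.

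The genes, lists and tests were chosen with earlier results of these data known. Named genes are the 10 members and, per pathway list, the called genes of largest change, up to 3 in the commoner direction plus 1 in the opposite one, with a mean of at least 1 CPM in either group; per marker list, the 2 most abundant. Any further gene was picked with its values known. Of the rule's marker genes, Esam and Pecam1 (endothelial) and Laptm5 and Coro1a (immune) had at most 35 counts in any library. 1 further marker list is not reported here. Floors and intervals cover counting error only.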

Additional observations from a re-analysis of the deposited data

How the results depend on the processing

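Over 16 alternative fits, Yap1, Wwtr1, Tead1, Tead2, Tead4, Lats2 and Stk3 kept their rise and their call. The exceptions were Lats1, Tead3 and Stk4. Lats1 was called lower in 13 of 16 and gave log2 fold changes of -0.046 on log2(TPM + 1), with or without the filter, and -0.048 on log2(TPM + 0.1), so that the members called lower numbered 0 in these fits; the median gene rises on that scale. Tead3 became higher with library totals (0.37), on log2(TPM + 1) (0.41) and on log2(TPM + 0.1) (0.45). Stk4 became higher with library totals (0.31), on log2(TPM + 1) with or without the filter (0.53) and on log2(TPM + 0.1) (0.55). Genes called lower over the whole table went from 4664 to 2973 with library totals, 1796 and 1752 on log2(TPM + 1) and log2(TPM + 0.1), and 1728 without the TPM filter. Pathway genes called lower went from 13 to 5 with library totals, 3 on each of these TPM fits and 6 with TPM rescaled to a common median ratio. Shares in CPM, which are not per length, were 1.92% and 18.8% for Wwtr1, 77.6% and 68.0% for Tead1, 6.27% and 12.01% for Tead2, 15.2% and 8.13% for Tead3, 0.917% and 11.8% for Tead4, 1.06% and 10.6% for Lats2, and 25.7% and 36.3% for Stk3 (adult and fetal); each moved in the same direction as in TPM. With the replicate number as a block, 7 of the 10 genes rose and 1 fell, as without it, and 4765 genes were higher and 4584 lower over the table. Same-numbered libraries did not deviate together (correlation -0.03 across genes), and the labels give no shared source for a number. Leaving out single libraries changed none of the calls of the 10 genes, with 9 to 13 pathway genes lower and 39 to 42 higher. Depth limits Tead4, Lats2 and Wwtr1 in adult libraries, where they had 6 to 26 counts.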

Other observations

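The number of estimated counts per TPM, taken relative to the median gene of the same library, follows the transcript length that RSEM used and so the mix of isoforms it estimated. For Tead4 this relative length was 1.41 in both adult and 1.18 and 1.19 in fetal libraries, a log2 difference of -0.25; 7.49% of 12954 genes had a larger shift in either direction. For Lats2 it was 1.31 and 2.25 in adult and 2.06 and 2.20 in fetal libraries, so adult replicate 1 stood apart, and the TPM of Lats2 in adult (0.72 and 0.40) differed more than its CPM (1.66 and 1.60). For Lats1 it was 3.34 in both adult libraries and 3.35 in both fetal libraries. The adult values of Tead4 and Lats2 rest on 6 to 19 counts per library.

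The following pathway genes were chosen after their values were seen. Ankrd1, a nuclear ankyrin-repeat protein, was at 0.700 and 0.601 CPM in adult and 9.27 and 8.51 CPM in fetal libraries. Dchs1 and Dchs2, the atypical cadherins that pair with Fat4, had at most 5 counts in any library, and Fat4 had 8 to 10 counts per library in both groups, so that this branch was near the limit of detection in both. Fat1, the epithelial relative of Fat4, was at 302 and 296 CPM in adult and 383 and 403 CPM in fetal libraries (log2 fold change 0.39 with SE 0.03, adjusted p = 6.03e-07 by edgeR and Benjamini-Hochberg). Tjp1, a tight-junction scaffold that binds YAP and TAZ, rose from 148 to 383 CPM.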
